A study of Gallus gallus with 6 samples.

Results

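The distal ductus arteriosus (DA), the part of the DA next to the descending aorta, was compared with that vessel in chick embryos of the Hypeco Nera strain. The comparison rests on 4 of the 6 arrays of the series, chosen by their titles: 2 arrays of the distal DA and 2 of the aorta, while the 2 arrays of the proximal DA, next to the pulmonary artery, only helped to estimate the spread between arrays and were set beside the others for a few genes. All embryos were at the IP stage, when the beak has broken into the air cell, the lungs begin to breathe and the gas in the egg is still poor in oxygen. The labels name no engineered allele and no drug. The input of an array was 100 ng of total RNA from the right-sided DA or the descending aorta, and the methods of the study state that tissue of 10 embryos was pooled for a sample, so that an array gives a mean over embryos and no spread between them. The methods also state that hybridization was done in duplicate and that the intensities of each tissue were averaged. No source used here says whether the 2 arrays of a tissue hold different pools. The p-values therefore measure only the spread between arrays, and this may be technical.

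The DA carries blood from the pulmonary artery to the descending aorta before hatching. The study states that in chicks the proximal DA closes soon after hatching, while the distal DA does not close at that time. In birds the part near the pulmonary artery has the muscular wall that contracts in response to oxygen, while the part near the aorta has an elastic wall and lies next to the aorta without a sharp border. The descending aorta is an elastic artery whose smooth muscle cells lie between lamellae of elastin. Bulk tissue was measured throughout, so a lower value may mean fewer cells of a type or less RNA per cell, and these cannot be told apart.

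The values are log2 values after robust multi-array averaging (RMA), with 1 value per probe set and array, and all differences are log2 differences of the distal DA minus the aorta, given with the standard error of the limma fit and n = 2 arrays per tissue. A probe set was called when its Benjamini-Hochberg adjusted p in limma, over all 20804 probe sets, was below 0.05. An exact permutation test of 2 against 2 arrays cannot give a two-sided p below 0.333, so no such test was used. Array medians were 6.61 to 6.66 and lower quartiles 5.25 to 5.41. Values below the lower quartile cannot be told from background here, and the size of a difference that ends in such a value is not exact. The 2 distal DA arrays correlated with r = 0.989 over probe sets, the 2 aorta arrays with r = 0.981, and a distal DA array with an aorta array with r = 0.969 to 0.979. Genes that mark the vessel wall were bright in both tissues: the values of *eln*, which encodes elastin, were 13.07 and 12.99 in the distal DA against 13.20 and 13.20 in the aorta, and those of *myh11*, the myosin heavy chain of smooth muscle, were 12.11 and 12.17 in the distal DA against 11.07 and 11.18 in the aorta. The difference of *eln* was -0.17 ± 0.14 (adjusted p = 0.789) and did not pass the test.

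In all, 332 probe sets were called, which is 1.60% of those tested, 198 of them higher (0.952%) and 134 lower (0.644%) in the distal DA. The differences ranged from 0.74 to 4.08 among the higher probe sets, with a median of 1.30, and from -3.02 to -0.76 among the lower ones, with a median of -1.14. Counted by gene, with the brightest probe set of each of 11528 genes, 1.30% were higher and 0.703% were lower. The median difference of all genes was -0.005. These 2 shares and this median are the background of every gene list below. The number of calls changed when 1 array was left out. Leaving out a distal DA or aorta array keeps a single array of that tissue and fewer residual degrees of freedom, so such a fit also has less power. Without distal DA replicate 1 or 2, 36 and 40 probe sets were called higher and 16 and 18 lower, and without aorta replicate 1 or 2, 109 and 114 were higher and 141 and 85 lower. Of the probe sets called with all arrays, 31 higher and 11 lower ones were called whichever array was left out. Leaving out either proximal DA array gave the same fit of this contrast, so these 2 of the 6 fits are 1 result.

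**Figure D1:**
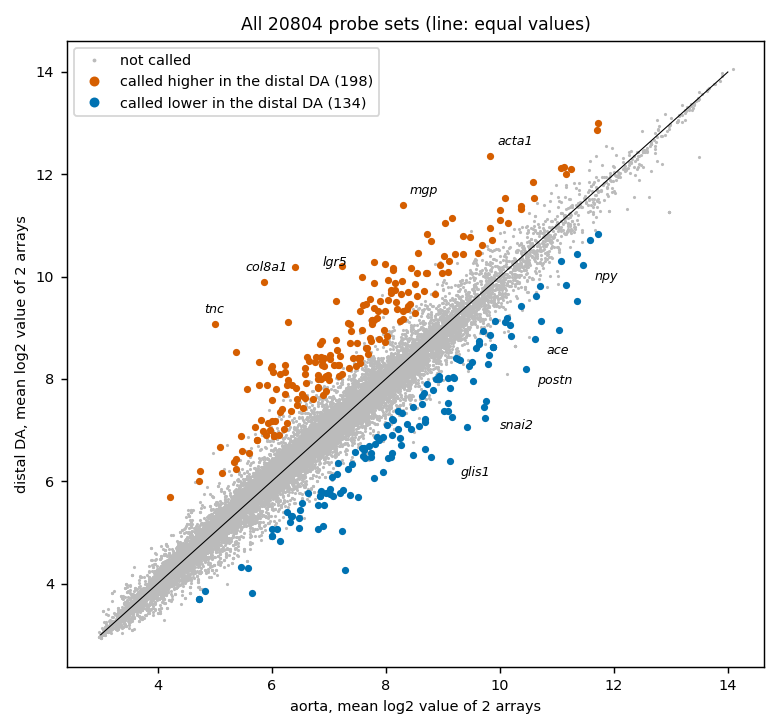
Mean log2 value in the distal DA (y axis) against that in the aorta (x axis) for each of the 20804 probe sets, with the 198 called higher in orange, the 134 called lower in blue and the line of equal values. The called probe sets lay on both sides of the line over most of the range of signal, with *tnc* and *col8a1* far above it and *glis1* and *snai2* below it.

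The largest differences belonged to genes of several kinds that were higher in the distal DA. *tnc* had log2 values of 8.99 and 9.17 in the distal DA against 5.09 and 4.91 in the aorta (difference 4.08 ± 0.16, adjusted p = 0.000408). Its aorta values were below the lower quartile, so the size of this difference is not exact. *tnc* encodes tenascin C, a matrix glycoprotein of remodelling tissue, and its second probe set was also called, with 8.15 and 8.26 in the distal DA against 6.15 and 5.84 in the aorta. *col8a1* encodes a short-chain collagen of vessel walls, and its values were 10.24 and 9.55 in the distal DA against 5.74 and 5.98 in the aorta (4.04 ± 0.23, adjusted p = 0.00147). *fam132a*, which encodes a secreted protein of the C1q family, gave 10.40 and 9.99 in the distal DA against 6.20 and 6.60 in the aorta (3.80 ± 0.20, adjusted p = 0.00113). None of the distal DA values of these genes came near those of the aorta. *fam13c* and *phyhipl*, genes of little known function that lie next to each other in the RefSeq annotation of assembly GRCg7b, were both higher. *fam13c* had log2 values of 8.55 and 8.51 in the distal DA against 5.46 and 5.29 in the aorta (3.16 ± 0.22, adjusted p = 0.00190). Its aorta value of 5.29 was below the lower quartile of that array, so the size of this difference is not exact. *phyhipl* had log2 values of 8.49 and 8.16 in the distal DA against 5.72 and 5.83 in the aorta (2.55 ± 0.26, adjusted p = 0.00666). *mgp*, an inhibitor of calcification in arteries, differed by 3.11 ± 0.37 (adjusted p = 0.0111), with 11.14 and 11.67 in the distal DA against 7.71 and 8.88 in the aorta, so that the 2 aorta arrays stood further apart for this gene than the 2 distal DA arrays. *gpr20*, an orphan G protein-coupled receptor, had 9.15 and 9.06 in the distal DA against 6.32 and 6.25 in the aorta (2.82 ± 0.19, adjusted p = 0.00186). The calls of *tnc*, *col8a1*, *fam132a*, *fam13c* and *gpr20* were kept whichever array was left out. *phyhipl* lost its call without distal DA replicate 1 (limma adjusted p = 0.0557), and *mgp* without either distal DA array (adjusted p = 0.0509 to 0.0747).

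**Figure D2:**
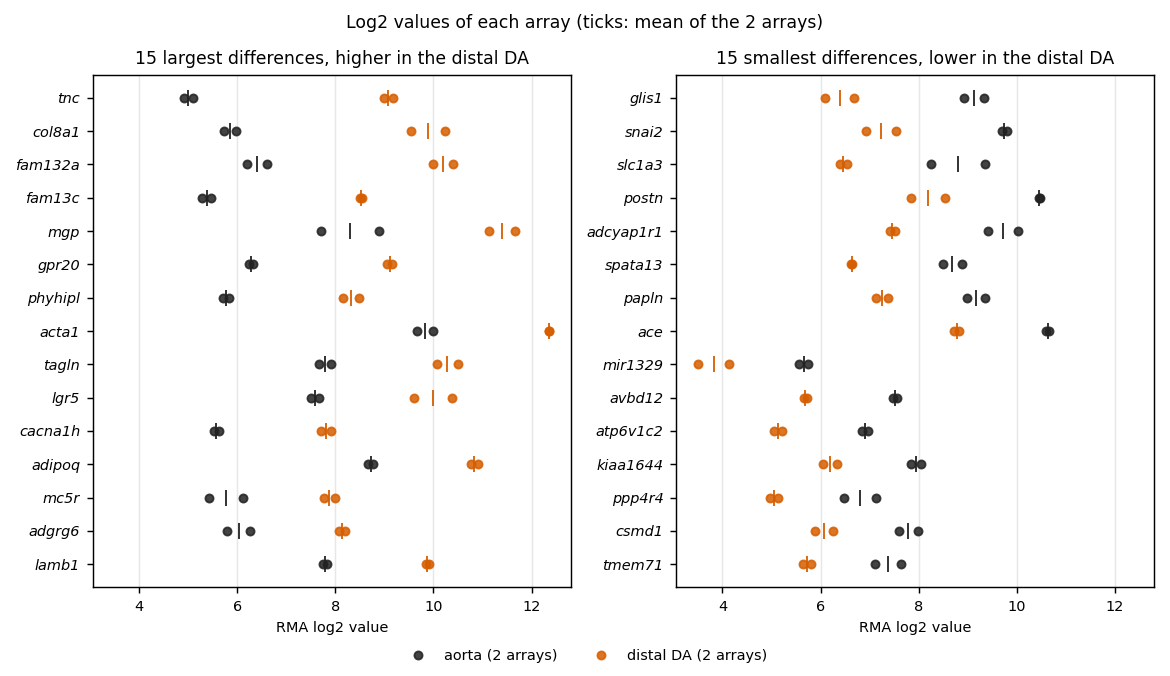
Log2 value (x axis) of each array for the 15 genes with the largest and the 15 with the smallest called differences among probe sets with 1 symbol, with aorta arrays in black, distal DA arrays in orange and ticks at the mean of the 2 arrays. The groups do not overlap, as was so for 39.7% of all probe sets, which the choice of the largest differences brings with it, and the gap between replicates is wide for *mgp* and *slc1a3* in the aorta.

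Genes of the contractile apparatus of smooth muscle were prominent among those higher in the distal DA. Of 38 listed genes 24 were measured, 10 were called higher, against 1.30% of all genes, and 0 lower, and 23 of the 24 had a positive difference, with a median of 0.96 against -0.005 over all genes. *tagln*, which encodes the actin-binding protein transgelin, had 10.08 and 10.49 in the distal DA against 7.66 and 7.91 in the aorta (2.50 ± 0.19, adjusted p = 0.00248). *tpm1*, a tropomyosin, had 11.11 and 10.99 in the distal DA against 9.02 and 9.06 in the aorta (2.01 ± 0.14, adjusted p = 0.00186), and *synpo2*, an actin-bundling protein of the Z disc, had 10.14 and 10.12 in the distal DA against 8.15 and 8.11 in the aorta (2.0 ± 0.14, adjusted p = 0.00195). The replicates of these genes lay much closer to each other than to those of the other tissue. *pdlim5*, a LIM protein of the actin cytoskeleton, differed by 1.52 ± 0.16 (adjusted p = 0.00743), *csrp1*, another LIM protein, by 1.30 ± 0.15 (adjusted p = 0.00881), and *actg2*, the enteric smooth muscle actin, by 1.17 ± 0.14 (adjusted p = 0.0128). Further called members were *myh11* with 1.02, *pdlim3* with 1.0, *mylk*, the kinase that activates myosin, with 0.96 and *lpp* with 0.84. Myosins that are not specific to smooth muscle showed smaller differences that did not pass the test, 0.52 for *myh9* and -0.08 for *myh10*, the lowest of the list. At an unadjusted limma p below 0.05, 20 of the 24 members were higher and 0 lower, against 6.46% and 5.53% of all genes. The list held 3 called genes without distal DA replicate 1, 3 without replicate 2, and 6 and 7 without aorta replicate 1 or 2. The calls of *tagln*, *tpm1* and *synpo2* were kept whichever array was left out. *pdlim5*, *csrp1* and *actg2* lost their calls without either distal DA array (limma adjusted p = 0.0557 to 0.113). The calls of *myh11*, *pdlim3* and *mylk* were lost in 4 and that of *lpp* in 6 of the 6 fits with 1 array left out.

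Muscle genes outside that list were also higher. *des*, which encodes desmin, the intermediate filament of muscle, had 10.11 and 10.30 in the distal DA against 7.26 and 7.20 in the aorta (2.98 ± 0.16, adjusted p = 0.00113). *acta1*, named for the skeletal muscle actin, had 12.36 and 12.36 in the distal DA against 9.99 and 9.67 in the aorta (2.53 ± 0.16, adjusted p = 0.00186). Actin genes are almost identical in their coding sequence, and how far this probe set takes up RNA of another actin was not tested. *ankrd1*, a stretch-responsive muscle protein, had 7.35 and 7.05 in the distal DA against 5.91 and 5.73 in the aorta (1.38 ± 0.17, adjusted p = 0.0127). *sorbs2*, an adaptor of actin fibres, differed by 1.84 ± 0.16 (adjusted p = 0.00363) and *rbpms2*, an RNA-binding protein of smooth muscle cells, by 1.64 ± 0.16 (adjusted p = 0.00538). Among 24 measured markers of cardiac and skeletal muscle 2 were called, *acta1* and *ankrd1*, both higher, against 1.30% of all genes. The median difference was 0.12. *des* belongs to these listed markers but is not in that count, because its probe set has no symbol in the annotation. The skeletal muscle regulator *myod1* had 5.44 and 5.17 in the distal DA against 5.09 and 5.13 in the aorta, and the cardiac troponin *tnnc1* had 5.41 and 5.56 in the distal DA against 5.54 and 5.56 in the aorta, near or below the lower quartile of the arrays. The calls of *des*, *acta1* and *sorbs2* were kept whichever array was left out. *rbpms2* lost its call without distal DA replicate 2 (limma adjusted p = 0.0561), and *ankrd1* without either distal DA array (adjusted p = 0.0542 to 0.111).

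Among 27 measured transcription factors that act in smooth muscle, 4 were higher and 1 was lower, against 1.30% and 0.703% of all genes. The median was 0.21. *myocd*, the coactivator of serum response factor that drives contractile genes, had 10.42 and 10.45 in the distal DA against 9.41 and 9.29 in the aorta (1.08 ± 0.16, adjusted p = 0.0217). *fhl2*, a LIM-only cofactor in muscle, had 8.41 and 8.46 in the distal DA against 6.49 and 6.74 in the aorta (1.82 ± 0.15, adjusted p = 0.00316). *foxf1*, a forkhead factor of the mesenchyme around gut and vessels, had 7.78 and 7.63 in the distal DA against 6.23 and 6.25 in the aorta (1.46 ± 0.14, adjusted p = 0.00461), and *prrx2*, a homeobox factor of connective tissue, had 9.83 and 9.55 in the distal DA against 8.37 and 8.40 in the aorta (1.30 ± 0.15, adjusted p = 0.00977). In contrast *tbx20*, a T-box factor of the heart, was lower, with 6.39 and 6.34 in the distal DA against 7.22 and 7.11 in the aorta (-0.80 ± 0.13, adjusted p = 0.0364). The partner of *myocd*, *srf*, differed by 0.74, and the 4 measured *mef2* genes by 0.20 to 0.60. None of these passed the test. The call of *fhl2* was kept whichever array was left out. *foxf1* lost its call without distal DA replicate 1 (limma adjusted p = 0.0585), and *prrx2* without either distal DA array (adjusted p = 0.0504 to 0.102). *myocd* did so without any 1 of the 4 distal DA and aorta arrays (limma adjusted p = 0.0534 to 0.164), and *tbx20* without any 1 of the 6 arrays (adjusted p = 0.0679 to 0.265). The list held 1 gene called higher without distal DA replicate 1 and 2 without replicate 2.

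Other regulators of the embryo were called in both directions, and the strongest differences were towards the aorta. *snai2*, a zinc finger repressor of the neural crest and of mesenchymal cells, was lower in the distal DA at both of its probe sets: 6.92 and 7.54 in the distal DA against 9.80 and 9.69 in the aorta at the first (-2.52 ± 0.21, adjusted p = 0.00316) and 7.41 and 7.72 against 9.89 and 9.61 at the second (-2.18 ± 0.20). *glis1*, a zinc finger factor related to the GLI proteins, had 6.10 and 6.69 in the distal DA against 9.33 and 8.93 in the aorta (-2.74 ± 0.23, adjusted p = 0.00316), the lowest called difference of any gene with 1 symbol. Both replicates of the distal DA lay more than 1 log2 unit below the aorta for these genes. *sim2*, a basic helix-loop-helix factor, differed by -1.38 ± 0.23 (adjusted p = 0.0350) and *ebf3*, an early B cell factor of mesenchyme, by -0.96 ± 0.17 (adjusted p = 0.0434). The value of *sim2* in distal DA replicate 2, 5.31, was below the lower quartile of that array. On the other side, *twist1*, a regulator of cranial mesenchyme, had 7.81 and 8.13 in the distal DA against 6.12 and 6.44 in the aorta (1.69 ± 0.21, adjusted p = 0.0130). *tfap2b*, a neural crest factor whose human gene is mutated in Char syndrome with patent ductus arteriosus, had 6.27 and 6.14 in the distal DA against 4.83 and 4.66 in the aorta (1.46 ± 0.20, adjusted p = 0.0176), with both aorta values below the lower quartile. *gata3* differed by 0.95 ± 0.17 (adjusted p = 0.0455). Of 31 measured neural crest and pharyngeal arch factors 3 were higher and 1 was lower, with a median of 0.015. Of 31 factors of paraxial and lateral mesoderm 1 was higher and 3 were lower, with a median of 0.10. The shares of all genes were 1.30% higher and 0.703% lower. The calls of *snai2* and *glis1* were kept whichever array was left out. *twist1* lost its call without either distal DA array (limma adjusted p = 0.0615 to 0.101), and *tfap2b* without either distal DA array or aorta replicate 2 (adjusted p = 0.0613 to 0.131). *sim2* did so without either distal DA array, aorta replicate 1 or either proximal DA array (limma adjusted p = 0.0785 to 0.203), and *ebf3* and *gata3* without any 1 of the 6 arrays (adjusted p = 0.0594 to 0.299).

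HOX, MEIS and PBX genes, which carry position along the body axis, gave 0 calls in limma among 27 measured genes, 3 higher and 1 lower at an unadjusted p below 0.05 (6.46% and 5.53% of all genes), and a median of 0.27 against -0.005 over all genes. The members with the smallest p were *hoxd4*, with 6.18 and 6.20 in the distal DA against 5.69 and 5.76 in the aorta (difference 0.46, adjusted p = 0.199), and *hoxa11*, with 5.28 and 5.37 in the distal DA against 5.01 and 4.82 in the aorta (difference 0.41), whose values were near or below the lower quartile.

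Of 36 measured genes on the list of calcium handling and ion channels, 4 were called higher and 1 lower. The median was 0.17, and of all genes 1.30% were higher and 0.703% lower. *cacna1h*, a pore subunit of T-type calcium channels, had 7.70 and 7.91 in the distal DA against 5.63 and 5.52 in the aorta (2.23 ± 0.15, adjusted p = 0.00190), while the T-type subunit *cacna1g* had 6.42 and 6.10 in the distal DA against 6.46 and 6.10 in the aorta and did not pass the test. *atp2a3*, a calcium pump of the sarcoplasmic reticulum that is not in that count, had 9.66 and 9.37 in the distal DA against 7.0 and 7.27 in the aorta (2.38 ± 0.17, adjusted p = 0.00195). All 3 listed and measured subunits of the large-conductance calcium-activated potassium channel were higher: *kcnma1*, the pore, with 9.07 and 9.25 in the distal DA against 7.73 and 7.80 in the aorta, and *kcnmb1*, its smooth muscle beta subunit, with 9.62 and 9.71 in the distal DA against 8.25 and 8.28 in the aorta. The differences were 1.4 ± 0.18 (adjusted p = 0.0142) and 1.4 ± 0.17 (adjusted p = 0.0128). *kcnmb2*, another beta subunit, differed by 1.54 ± 0.28 (adjusted p = 0.0456), with 8.22 in one distal DA array and 7.56 in the other. The second probe set of *kcnma1* differed by 0.72 and was not called. *abcc9*, the sulfonylurea receptor subunit of ATP-sensitive potassium channels, was lower with 6.66 and 6.50 in the distal DA against 7.42 and 7.51 in the aorta (-0.88 ± 0.15, adjusted p = 0.0384), and its pore partner *kcnj8* differed by -0.36, which did not pass the test. *kcnq3*, a neuronal potassium channel that is not in that count, had 5.59 and 5.84 in the distal DA against 6.98 and 7.17 in the aorta (-1.36 ± 0.15, adjusted p = 0.00955). Also outside it, the potassium channel genes *kcnd2* and *kcnf1* were called lower, by -1.06 and -1.08, and *kcnt1* higher, by 1.16. The value of *kcnd2* in distal DA replicate 1, 5.37, was below the lower quartile of that array. None of the calls of *kcnd2*, *kcnf1* and *kcnt1* was kept whichever array was left out. The channel *kcna5*, studied in oxygen sensing of the DA in mammals, stayed below the lower quartile, with 4.31 and 4.17 in the distal DA against 4.18 and 4.43 in the aorta. The calls of *cacna1h* and *atp2a3* were kept whichever array was left out. *kcnma1*, *kcnmb1* and *kcnq3* lost their calls without either distal DA array (limma adjusted p = 0.0510 to 0.116), and *kcnmb2* and *abcc9* without any 1 of the 6 arrays (adjusted p = 0.0586 to 0.271).

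Genes of prostaglandin and cyclic nucleotide signalling were higher in 6 of 38 measured cases and lower in 0. The median was 0.16, and of all genes 1.30% were higher and 0.703% lower. *ptgs2*, the inducible cyclooxygenase, had 8.37 and 8.35 in the distal DA against 6.66 and 7.11 in the aorta (1.48 ± 0.24, adjusted p = 0.0336). *slco2a1*, the transporter that takes up prostaglandins, had 9.13 and 9.54 in the distal DA against 8.04 and 7.69 in the aorta (1.47 ± 0.26, adjusted p = 0.0423). *irag1*, a substrate of cGMP-dependent kinase that restrains calcium release, differed by 1.34 ± 0.18 (adjusted p = 0.0176), with 10 and 10.14 in the distal DA against 8.88 and 8.57 in the aorta. The groups did not overlap for any of these, as was so for 39.7% of all probe sets. *pde3a*, a phosphodiesterase of cyclic AMP, differed by 0.93 ± 0.14 (adjusted p = 0.0270), and the adenylyl cyclases *adcy2* and *adcy6* by 1.10 ± 0.17 (adjusted p = 0.0263) and by 0.90 ± 0.15 (adjusted p = 0.0333). Other genes of prostaglandin synthesis and response did not pass the test, with 0.40 for *ptgs1*, 0.28 for *ptges*, 0.11 for the E receptor *ptger4* and -0.98 for the F receptor *ptgfr*. None of the 6 calls was kept in every fit with 1 array left out, and without either distal DA array 0 of the 6 were called. *ptgs2* lost its call without either distal DA array or aorta replicate 1 (limma adjusted p = 0.0885 to 0.183), and *irag1* without either distal DA array or aorta replicate 2 (adjusted p = 0.0608 to 0.133). *slco2a1* and *pde3a* did so without any 1 of the 4 distal DA and aorta arrays (limma adjusted p = 0.0578 to 0.242), and *adcy2* and *adcy6* without any 1 of the 6 arrays (adjusted p = 0.0521 to 0.243).

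Among 61 measured vasoactive peptides, amines and their receptors, 4 were higher and 4 were lower, against 1.30% and 0.703% of all genes. The median was 0.17. The 4 lower genes were bright in the aorta. *ace*, the angiotensin-converting enzyme, had 8.83 and 8.72 in the distal DA against 10.59 and 10.66 in the aorta (-1.85 ± 0.15, adjusted p = 0.00284), and *adcyap1r1*, which binds the neuropeptide PACAP, had 7.41 and 7.51 in the distal DA against 10.02 and 9.41 in the aorta (-2.26 ± 0.21, adjusted p = 0.00454). *oprm1*, the mu opioid receptor, had 7.06 and 7.11 in the distal DA against 8.76 and 8.39 in the aorta (-1.49 ± 0.19, adjusted p = 0.0136). *npy*, neuropeptide Y, which is released from sympathetic nerves, had 10.11 and 10.34 in the distal DA against 11.34 and 11.59 in the aorta (-1.24 ± 0.20, adjusted p = 0.0327). Of the angiotensin receptors *agtr1* differed by 0.15 and *agtr2* by -0.27, neither past the test. Higher in the distal DA were *mc5r*, a melanocortin receptor, with 7.99 and 7.76 in the distal DA against 5.43 and 6.11 in the aorta (2.10 ± 0.23, adjusted p = 0.00875), and *ednra*, the endothelin receptor that constricts smooth muscle, with 8.81 and 9.35 in the distal DA against 7.76 and 7.76 in the aorta (1.32 ± 0.22, adjusted p = 0.0335). *htr1b*, a serotonin receptor, had 8.2 and 8.34 in the distal DA against 7.28 and 7.09 in the aorta (1.08 ± 0.17, adjusted p = 0.0319), and *ucn3*, urocortin 3, a peptide of the corticotropin-releasing family, had 8.21 and 8.35 in the distal DA against 6.86 and 7.31 in the aorta (1.20 ± 0.19, adjusted p = 0.0300). The ligand *edn1* had a difference of 0.68 (adjusted p = 0.0993). The calls of *ace* and *adcyap1r1* were kept whichever array was left out. *oprm1* and *mc5r* lost their calls without either distal DA array (limma adjusted p = 0.0504 to 0.112), and *npy* without any 1 of the 4 distal DA and aorta arrays (adjusted p = 0.0540 to 0.222). *ucn3* did so without either distal DA array, aorta replicate 1 or either proximal DA array (limma adjusted p = 0.0614 to 0.199), and *ednra* without any 1 of the 6 arrays (adjusted p = 0.0593 to 0.181). *htr1b* was not called in 4 of the 6 fits with 1 array left out. Without distal DA replicate 1 or 2, 0 members of the list were called higher and 2 lower.

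Membrane receptors and signalling proteins beside *gpr20* also had large differences. *lgr5*, a receptor of R-spondins that marks stem cells in epithelia, had 9.61 and 10.37 in the distal DA against 7.51 and 7.67 in the aorta (2.4 ± 0.25, adjusted p = 0.00670). *adgrg6*, an adhesion receptor known from the myelination of peripheral nerves, had 8.19 and 8.08 in the distal DA against 5.80 and 6.26 in the aorta (2.10 ± 0.19, adjusted p = 0.00441). *spata13*, an exchange factor of Rac and Cdc42, had 6.63 and 6.65 in the distal DA against 8.49 and 8.88 in the aorta (-2.04 ± 0.17, adjusted p = 0.00316), and its second probe set was also lower, by -1.96. The values of these genes did not overlap between the tissues, as was so for 39.7% of all probe sets. *rgs16*, which ends G protein signals, differed by 1.48 ± 0.21 (adjusted p = 0.0201), though both aorta values lay below the lower quartile. The calls of *lgr5*, *adgrg6* and *spata13* were kept whichever array was left out. *rgs16* lost its call without either distal DA array or aorta replicate 2 (limma adjusted p = 0.0692 to 0.140).

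The matrix of the 2 vessels differed in a few genes with large steps, while the genes of several main components were not called. The fibrillar collagen genes *col1a1* and *col1a2* differed by 0.12 and 0.08, and the elastic fibre genes *lox*, *fbln5* and *fbn2* by -0.04, 0.14 and 0.40, none of them past the test. Of 16 elastic fibre genes 0 were called higher and 1 lower, against 1.30% and 0.703% of all genes, with a median of -0.11. At an unadjusted limma p below 0.05, 3 of the 16 were higher and 6 lower, against 6.46% and 5.53% of all genes. The called gene was *fbln1*, which encodes fibulin 1, with 9.84 and 9.79 in the distal DA against 10.78 and 10.62 in the aorta (-0.88 ± 0.14, adjusted p = 0.0300). At an unadjusted limma p below 0.05, 8 of 41 collagen genes were higher and 7 lower. Called were 3 as higher and 1 as lower, against 1.30% and 0.703% of all genes, with a median of 0.04. Beside *col8a1* these were *col13a1*, a transmembrane collagen, with 7.76 and 7.88 in the distal DA against 6.25 and 6.61 in the aorta (1.39 ± 0.17, adjusted p = 0.0110), *plod2*, the enzyme that hydroxylates lysines of collagen telopeptides, with a difference of 1.32 ± 0.17 (adjusted p = 0.0136), and *col21a1*, lower with 6.52 and 6.39 in the distal DA against 8.33 and 7.76 in the aorta (-1.59 ± 0.22, adjusted p = 0.0188). *col13a1* and *col21a1* lost their calls without either distal DA array (limma adjusted p = 0.0861 to 0.130), and *plod2* without either distal DA array or aorta replicate 2 (adjusted p = 0.0513 to 0.115). *fbln1* did so without any 1 of the 6 arrays (limma adjusted p = 0.0561 to 0.217).

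Of 58 matricellular proteins and proteoglycan genes 5 were higher and 3 lower, against 1.30% and 0.703% of all genes. The median was 0.02. *tnc* and *mgp*, described above, were among the 5 higher ones. *postn*, which encodes periostin, a matricellular protein of valves and fibrous tissue, had 7.85 and 8.53 in the distal DA against 10.47 and 10.45 in the aorta (-2.27 ± 0.28, adjusted p = 0.0130), opposite in direction to *tnc*, its binding partner. *papln*, papilin, a proteoglycan-like matrix protein, had 7.38 and 7.14 in the distal DA against 9.36 and 8.98 in the aorta (-1.91 ± 0.19, adjusted p = 0.00514), and *sulf1*, which removes sulfate groups from heparan sulfate, differed by -0.76 ± 0.14 (adjusted p = 0.0455). *has2*, the hyaluronan synthase of the cardiac cushions and the DA intima, had 10.05 and 9.80 in the distal DA against 7.74 and 8.33 in the aorta (1.89 ± 0.21, adjusted p = 0.00933), with the 2 aorta arrays further apart than the 2 distal DA arrays. *hs3st1*, a heparan sulfotransferase, differed by 1.12 ± 0.17 (adjusted p = 0.0230), and *sdc4*, a cell surface proteoglycan, by 1.08 ± 0.17 (adjusted p = 0.0264). Not in that count were *chad* and *ccn2*. *chad*, chondroadherin, had 10.96 and 11.32 in the distal DA against 9.29 and 9.03 in the aorta (1.98 ± 0.17, adjusted p = 0.00363). *ccn2*, connective tissue growth factor, had 11.53 and 11.55 in the distal DA against 10.05 and 10.15 in the aorta (1.44 ± 0.13, adjusted p = 0.00452). The call of *chad* was kept whichever array was left out. *postn* lost its call without distal DA replicate 1 (limma adjusted p = 0.0767), and *papln* without distal DA replicate 2 (adjusted p = 0.0504). *has2* and *ccn2* did so without either distal DA array (limma adjusted p = 0.0504 to 0.0826), and *hs3st1* without either distal DA array or aorta replicate 1 (adjusted p = 0.0769 to 0.177). The call of *sdc4* was lost in 5 and that of *sulf1* in 6 of the 6 fits with 1 array left out. Without either distal DA array 1 of the 5 higher genes of the list and 1 of the 3 lower ones were called.

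Genes of the basement membrane and integrins, in 1 list, were called in the direction of the distal DA. These were 3 of 28 measured, against 1.30% of all genes: *lamb1*, *lama4* and the integrin gene *itgb3*. The median was 0.13. *lamb1*, a laminin beta chain, had 9.90 and 9.84 in the distal DA against 7.75 and 7.83 in the aorta (2.08 ± 0.13, adjusted p = 0.00186), and *lama4*, the laminin alpha chain of vessels and muscle, had 9.11 and 9.09 in the distal DA against 7.15 and 7.51 in the aorta (1.77 ± 0.17, adjusted p = 0.00462). *nid1*, nidogen 1, which links laminin with collagen IV and is not in that count, had 10.13 and 10.36 in the distal DA against 7.99 and 7.99 in the aorta (2.26 ± 0.15, adjusted p = 0.00186). The laminin gamma chain *lamc1* differed by -0.31, and *lama2* differed by 0.30, neither past the test. The collagen IV chains *col4a1* and *col4a2* differed by 0.92 (adjusted p = 0.102) and 0.90 (adjusted p = 0.102) and were not called. *itgb3*, the integrin beta chain of endothelium and thrombocytes, differed by 0.99 ± 0.16 (adjusted p = 0.0317). Among 42 genes of matrix proteases and their inhibitors 4 were higher and 1 was lower, against 1.30% and 0.703% of all genes. The median was 0.07. *spink5*, a serine protease inhibitor, had 7.90 and 7.88 in the distal DA against 5.99 and 5.85 in the aorta (1.97 ± 0.15, adjusted p = 0.00269) at the probe set given here, while its second probe set differed by 0.24 and was not called. *adamtsl1*, *adamts17* and *serpinf1* differed by 1.17, 0.94 and 0.94, and *adamts8* by -0.89. The calls of *lamb1*, *nid1* and *spink5* were kept whichever array was left out. *lama4* lost its call without distal DA replicate 1 (limma adjusted p = 0.0509), and *itgb3*, *adamtsl1* and *adamts17* without any 1 of the 4 distal DA and aorta arrays (adjusted p = 0.0624 to 0.228). *serpinf1* and *adamts8* did so without any 1 of the 6 arrays (limma adjusted p = 0.0551 to 0.253). Of the proteases and inhibitors, 1 was called higher without any 1 of the 4 distal DA and aorta arrays.

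Several endothelial genes were higher in the distal DA. Of 38 listed genes 23 were measured, 7 were called higher and 0 lower, against 1.30% and 0.703% of all genes. A positive difference was seen in 22, and the median was 0.56. *kdr*, the main receptor of vascular endothelial growth factor, had 8.32 and 8.21 in the distal DA against 6.33 and 6.15 in the aorta (2.02 ± 0.16, adjusted p = 0.00282), and *vwf*, von Willebrand factor, had 8.08 and 8.2 in the distal DA against 6.24 and 6.21 in the aorta (1.92 ± 0.19, adjusted p = 0.00524). *mmrn2*, a matrix protein of endothelial cells, differed by 1.57 ± 0.18 (adjusted p = 0.00962), *ecscr*, an endothelial surface protein, by 1.39 ± 0.15 (adjusted p = 0.00814), and *cdh5*, the cadherin of endothelial junctions, by 1.04 ± 0.14 (adjusted p = 0.0176). The transcription factors *sox18* and *sox7* differed by 1.20 ± 0.15 (adjusted p = 0.0138) and 1.10 ± 0.14 (adjusted p = 0.0128), but the second probe set of each, with 0.26 and 0.45, was not called. *pecam1* had 8.21 and 8.23 in the distal DA against 7.45 and 7.50 in the aorta and did not pass the test (0.74 ± 0.17, adjusted p = 0.108). *gpr116*, a receptor of lung and vessel endothelium outside that count, differed by 1.58 ± 0.15 (adjusted p = 0.00524), with both aorta values below the lower quartile. The mean log2 level over the 23 genes was 7.81 and 7.79 in the distal DA against 7.05 and 7.08 in the aorta, and that over the 24 contractile genes was 9.89 and 10.01 against 8.96 and 9.04. The part of cell composition in any other result was not tested. The list held 2 called genes without distal DA replicate 1 and 2 without replicate 2, and 4 without aorta replicate 2. The call of *kdr* was kept whichever array was left out. *vwf* lost its call without distal DA replicate 2 (limma adjusted p = 0.0504), and *mmrn2* and *gpr116* without distal DA replicate 1 (adjusted p = 0.0573 to 0.0861). *ecscr* did so without either distal DA array (limma adjusted p = 0.0504 to 0.0917), and *sox18* and *sox7* without either distal DA array or aorta replicate 2 (adjusted p = 0.0533 to 0.128). *cdh5* was not called in 4 of the 6 fits with 1 array left out.

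The list of red cells and thrombocytes had 13 measured markers, with a median of 0.45. Of these 2 were higher and 0 lower, against 1.30% and 0.703% of all genes. The globin genes *hba1* and *hbad* differed by 1.4 ± 0.55 (adjusted p = 0.407) and by 1.39 ± 0.41 (adjusted p = 0.210), with a wide spread between replicates: *hba1* had 10.55 and 11.24 in the distal DA against 8.90 and 10.08 in the aorta. *slc4a1*, the anion exchanger of red cells, differed by 0.85 ± 0.15 (limma adjusted p = 0.0437). The other called member was *itgb3*, which is also a gene of endothelium. The mean level over the list was 7.04 and 7.12 in the distal DA against 6.39 and 6.64 in the aorta. How far blood contributes to other differences was not tested. *slc4a1* lost its call without any 1 of the 6 arrays (limma adjusted p = 0.0594 to 0.288). Leukocyte genes gave 0 calls in limma among 17 measured, with a median of 0.06. At an unadjusted limma p below 0.05, 1 gene was higher and 1 lower, against 6.46% and 5.53% of all genes. *ptprc*, the common leukocyte antigen, had 5.42 and 5.37 in the distal DA against 5.15 and 5.32 in the aorta, at about the lower quartile of the arrays. *cd74*, of the antigen-presenting pathway, and *lcp1*, an actin-bundling protein of leukocytes, differed by 0.49 and -0.34.

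Fibroblast genes of the adventitia split in 2 directions. Of 26 measured 7 were called higher and 1 lower, against 1.30% and 0.703% of all genes. The median was -0.16, and 11 of the 26 differences were above 0. *pi16*, a marker of adventitial fibroblasts in mice, had 10.17 and 10.77 in the distal DA against 8.52 and 8.62 in the aorta (1.90 ± 0.21, adjusted p = 0.00924). *sfrp2*, a secreted Wnt modulator, had 8.77 and 8.74 in the distal DA against 7.19 and 7.05 in the aorta (1.64 ± 0.14, adjusted p = 0.00316). *cd248*, endosialin, differed by 1.36 ± 0.16 (adjusted p = 0.00978) and was also called at its second probe set. *ly6e* and *fap*, fibroblast activation protein, differed by 1.11 ± 0.14 (adjusted p = 0.0134) and 0.98 ± 0.17 (adjusted p = 0.0434). On the other side *dpt*, dermatopontin, and *lum*, lumican, differed by -0.88 and -0.80, neither past the test, beside the called *fbln1*. *tnmd*, tenomodulin, a marker of tendon cells that is not in that count, was higher with 9.66 and 9.41 in the distal DA against 8.07 and 8.02 in the aorta (1.49 ± 0.15, adjusted p = 0.00538). Without either distal DA array 2 of the 7 higher genes were called. The calls of *pi16* and *sfrp2* were kept whichever array was left out. *tnmd* lost its call without distal DA replicate 1 (limma adjusted p = 0.0615), and *cd248* and *ly6e* without either distal DA array (adjusted p = 0.0920 to 0.129). *fap* did so without any 1 of the 6 arrays (limma adjusted p = 0.0675 to 0.299).

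Markers of tissues that border the vessels gave calls in the list of mesothelium and fat, and none in those of airway epithelium and pigment cells. Of 12 genes of mesothelium and fat 2 were higher and 1 was lower, against 1.30% and 0.703% of all genes: *adipoq*, which encodes adiponectin, had 10.77 and 10.90 in the distal DA against 8.67 and 8.77 in the aorta (2.12 ± 0.14, adjusted p = 0.00186), *lpl*, lipoprotein lipase, differed by 1.18 ± 0.18 (adjusted p = 0.0270), and *lrrn4*, known from mesothelium in mammals, by -0.96 ± 0.13 (adjusted p = 0.0189). The fat cell genes *plin1* and *pparg* had differences of 0.21 and -0.26 that did not pass the test, and *pparg* lay below the lower quartile, with 4.40 and 4.17 in the distal DA against 4.41 and 4.69 in the aorta. Lung and airway epithelium gave 0 calls in limma among 13 genes. At an unadjusted limma p below 0.05, 0 of them were higher and 1 was lower, against 6.46% and 5.53% of all genes. Of its defining genes, *sftpa1* had 4.90 and 4.92 in the distal DA against 4.84 and 5.03 in the aorta. The other, *epcam*, had 4.95 and 4.83 in the distal DA against 4.85 and 5.19 in the aorta. Pigment cells gave 0 calls among 12 genes, 0 also at an unadjusted p below 0.05, and *tyr*, the key enzyme of melanin synthesis, had 4.45 and 4.41 in the distal DA against 4.55 and 4.88 in the aorta, all below the lower quartile, while the proximal DA arrays had 6.58 and 7.91. The call of *adipoq* was kept whichever array was left out. *lrrn4* lost its call without any 1 of the 4 distal DA and aorta arrays (limma adjusted p = 0.0624 to 0.169), and *lpl* without any 1 of the 6 arrays (adjusted p = 0.0588 to 0.171).

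Nerve and Schwann cell genes were called only as lower, 2 of 22 measured, against 0.703% of all genes, with a median of -0.05. Beside *npy* this was *ncam1*, the neural cell adhesion molecule, which is also found in embryonic muscle, with 10.67 and 10.76 in the distal DA against 11.67 and 11.50 in the aorta (-0.87 ± 0.14, adjusted p = 0.0350). The Schwann cell factor *sox10* had 6.11 and 6.18 in the distal DA against 6.43 and 6.47 in the aorta, and the sympathetic enzyme gene *th* lay below the lower quartile, with 5.02 and 4.96 in the distal DA against 5.09 and 4.99 in the aorta. Neither passed the test. Genes of axon guidance and cell adhesion were also called only as lower, 3 of 64 measured, against 0.703% of all genes. Yet the median was 0.08, and 38 differences were above 0. At an unadjusted limma p below 0.05, 11 genes were higher and 8 lower, against 6.46% and 5.53% of all genes. *robo2*, a receptor of slit proteins, had 5.91 and 5.59 in the distal DA against 6.94 and 7.12 in the aorta (-1.28 ± 0.17, adjusted p = 0.0143), *sema5b*, a semaphorin, had 9.09 and 9.02 in the distal DA against 10.26 and 10.11 in the aorta (-1.13 ± 0.17, adjusted p = 0.0231), and *ntn3*, a netrin, differed by -0.94 ± 0.15 (adjusted p = 0.0300). Their relatives *robo1* and *sema5a* differed by -0.50 and -0.40 and did not pass the test. Without distal DA replicate 1 or 2, 0 genes of either list were called. *robo2* lost its call without either distal DA array or aorta replicate 2 (limma adjusted p = 0.0577 to 0.116), and *npy* and *sema5b* without any 1 of the 4 distal DA and aorta arrays (adjusted p = 0.0540 to 0.222). *ncam1* and *ntn3* did so without any 1 of the 6 arrays (limma adjusted p = 0.0600 to 0.266).

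In the list of solute carriers, which leaves out *slco2a1*, *slc4a1* and others, 2 of 43 measured genes were called lower and 0 higher. Both are known from nerve and glia. The median was 0.06, and of all genes 0.703% were lower and 1.30% higher. At an unadjusted limma p below 0.05, 9 of the 43 were higher and 5 lower, against 6.46% and 5.53% of all genes. *slc1a3*, a glutamate transporter of glia, had 6.53 and 6.40 in the distal DA against 9.35 and 8.25 in the aorta (-2.34 ± 0.32, adjusted p = 0.0188), so that the aorta arrays differed by more than 1 log2 unit. *slc6a4*, the serotonin transporter, had 7.43 and 7.64 in the distal DA against 9.06 and 9.11 in the aorta (-1.55 ± 0.14, adjusted p = 0.00441), and lay with the serotonin receptor *htr1b* in the opposite direction. *slc38a4*, an amino acid transporter, had the largest positive difference of the list, 1.57, which did not pass the test (adjusted p = 0.0868). *slc6a4* lost its call without distal DA replicate 1 (limma adjusted p = 0.0522), and *slc1a3* without either distal DA array or either proximal DA array (adjusted p = 0.0559 to 0.115).

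Growth factor signals were called mostly towards the distal DA. Among 56 genes listed with the Notch, FGF, PDGF, VEGF, IGF and HGF systems 5 were higher, *kdr* among them, and 0 lower. *angpt1* and *ntrk3*, of the angiopoietin and neurotrophin systems, are on this list and among the 5. The median was 0.21, and of all genes 1.30% were higher and 0.703% lower. *vegfd*, vascular endothelial growth factor D, had 7.77 and 7.84 in the distal DA against 5.91 and 6.23 in the aorta (1.74 ± 0.16, adjusted p = 0.00448). *angpt1*, the angiopoietin made by mural cells, had 6.91 and 7.04 in the distal DA against 5.75 and 5.95 in the aorta (1.12 ± 0.17, adjusted p = 0.0225). *fgf1* had 9.01 and 8.90 in the distal DA against 7.37 and 7.78 in the aorta (1.38 ± 0.17, adjusted p = 0.0128), but its second probe set, with 0.07, was not called. *ntrk3*, the receptor of neurotrophin 3, had 9.93 and 9.80 in the distal DA against 8.56 and 8.45 in the aorta (1.36 ± 0.14, adjusted p = 0.00614). Pleiotrophin, *ptn*, a heparin-binding growth factor that is not in that count, differed by 1.38 ± 0.16 (adjusted p = 0.0109). The hepatocyte growth factor gene *hgf* had the most negative difference of the list, -0.94, which did not pass the test (adjusted p = 0.0688). The call of *vegfd* was kept whichever array was left out. *ptn* lost its call without distal DA replicate 1 (limma adjusted p = 0.0962), and *fgf1* and *ntrk3* without either distal DA array (adjusted p = 0.0516 to 0.114). *angpt1* did so without any 1 of the 4 distal DA and aorta arrays (limma adjusted p = 0.0509 to 0.173). Without either distal DA array 2 of the 5 genes of the list were called.

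In the Wnt and hedgehog pathways 3 of 46 genes, *lgr5*, *sfrp2* and *gli2*, were higher and 0 lower. The median was 0.14, and of all genes 1.30% were higher and 0.703% lower. *gli2*, a transcription factor of hedgehog signals, had 7.86 and 7.80 in the distal DA against 6.77 and 6.86 in the aorta (1.02 ± 0.13, adjusted p = 0.0166), while *ptch1* and *gli1*, common readouts of that pathway, differed by 0.28 and 0.20 and were not called. *pygo1*, a nuclear cofactor of Wnt signals that is not in that count, was lower with 7.89 and 7.75 in the distal DA against 9.18 and 9.06 in the aorta (-1.30 ± 0.16, adjusted p = 0.0130). In the TGF-beta and BMP pathway 1 of 35 genes was higher and 2 were lower, against 1.30% and 0.703% of all genes. The median was 0.11. *bmp6* had 9.66 and 9.27 in the distal DA against 7.46 and 7.85 in the aorta (1.81 ± 0.20, adjusted p = 0.00843), and *bmp7*, a ligand of the same class, went in the other direction with 6.16 and 6.14 in the distal DA against 7.10 and 7.20 in the aorta (-1.0 ± 0.17, adjusted p = 0.0350). *tgfbr3*, the coreceptor betaglycan, had 10.36 and 10.54 in the distal DA against 11.48 and 11.24 in the aorta (-0.91 ± 0.16, adjusted p = 0.0434). Among 29 nuclear receptors and retinoic acid genes 1 was higher and 0 lower, against 1.30% and 0.703% of all genes. The median was 0.11. At an unadjusted limma p below 0.05, 5 were higher and 2 lower, against 6.46% and 5.53% of all genes. The called gene was *nr4a3*, an immediate early nuclear receptor. It had 7.76 and 8.02 in the distal DA against 6.41 and 6.11 in the aorta (1.63 ± 0.19, limma adjusted p = 0.00977). *cyp26b1*, which breaks down retinoic acid, differed by 0.96 and was not called (limma adjusted p = 0.0694). *bmp6* lost its call without distal DA replicate 1 (limma adjusted p = 0.0689), and *pygo1* and *nr4a3* without either distal DA array (adjusted p = 0.0558 to 0.115). *gli2* and *bmp7* did so without any 1 of the 4 distal DA and aorta arrays (limma adjusted p = 0.0513 to 0.215), and *tgfbr3* without any 1 of the 6 arrays (adjusted p = 0.0727 to 0.303).

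**Figure D3:**
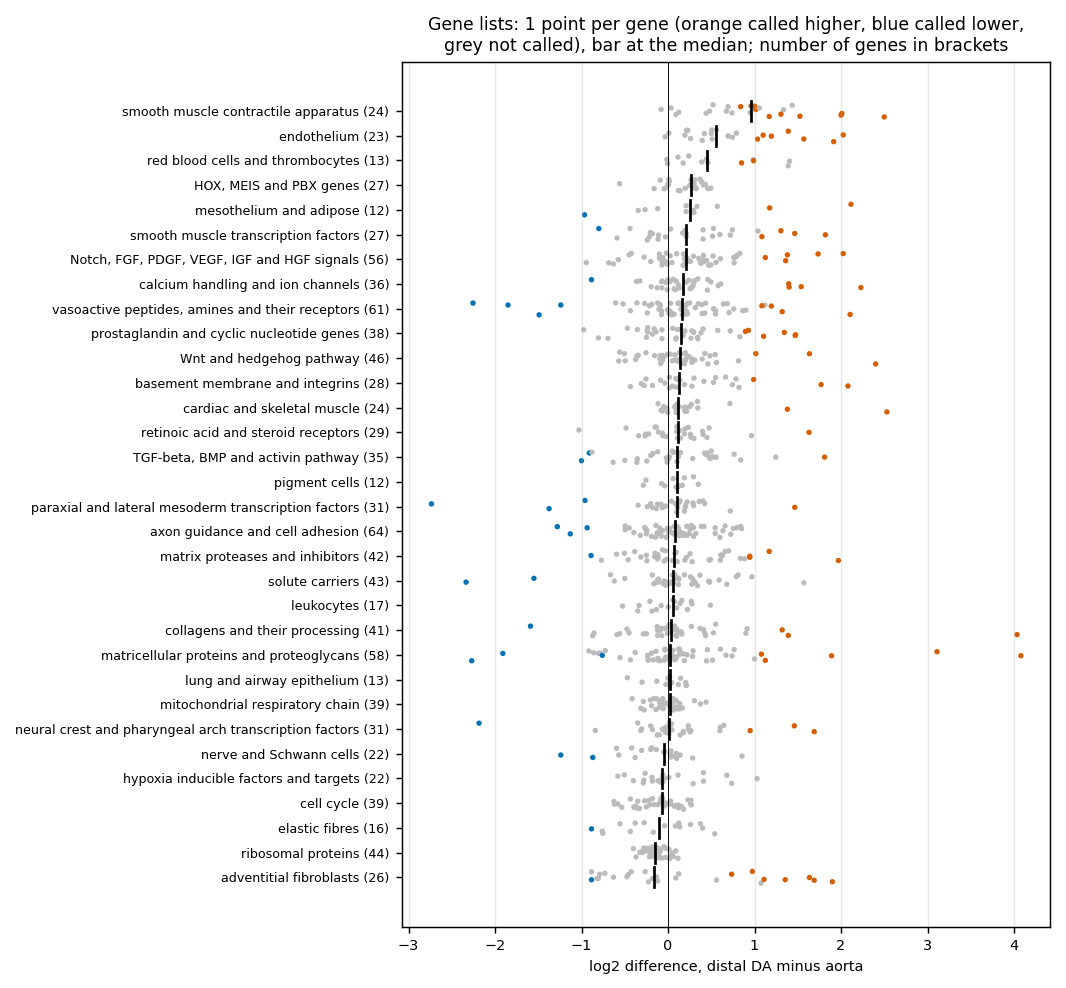
Log2 difference of the distal DA minus the aorta (x axis) for each measured gene of 32 gene lists (y axis, with the number of genes), 1 point per gene, orange for called higher, blue for called lower and grey for not called, with a bar at the median. The medians of the contractile and endothelial lists, 0.96 and 0.56, lay furthest to the right, and ribosomal proteins and adventitial fibroblasts lay slightly to the left.

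Housekeeping lists gave 0 calls in limma. Ribosomal protein genes, 44 measured, had a median of -0.15, respiratory chain genes, 39 measured, 0.02, and cell cycle genes, 39 measured, -0.07. At an unadjusted limma p below 0.05, 0 members of these lists were higher, against 6.46% of all genes. At that threshold 5 cell cycle and 1 ribosomal protein genes were lower, against 5.53% of all genes. The smallest p among cell cycle genes belonged to *mcm4* and *mcm2*, subunits of the replicative helicase, with differences of -0.62 (adjusted p = 0.0868) and -0.62 (adjusted p = 0.15). Among 22 genes of the hypoxia response, 0 were called in limma, with a median of -0.07. At an unadjusted limma p below 0.05, 5 of the 22 were higher and 1 was lower, against 6.46% and 5.53% of all genes. *epas1*, which encodes the hypoxia inducible factor of vessels, had 11.18 and 11.30 in the distal DA against 10.49 and 10.52 in the aorta (0.74 ± 0.15, adjusted p = 0.0767), and the glucose transporter *slc2a1* had 8.65 and 8.83 in the distal DA against 7.98 and 8.14 in the aorta (0.68 ± 0.15, adjusted p = 0.0881). These embryos were all at the stage of hypoxic air breathing, so that a common shift in both tissues would not be seen in this comparison.

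Of 402 probe sets named for microRNAs, 2 were higher and 1 was lower, against 0.952% and 0.644% of all probe sets, with a median of 0.05. *mir27b*, known from the control of endothelial sprouting, had 5.86 and 6.15 in the distal DA against 4.64 and 4.82 in the aorta (1.28 ± 0.16, adjusted p = 0.0130), with both aorta values below the lower quartile. *mir1653* had 12.09 and 12.12 in the distal DA against 11.23 and 11.26 in the aorta (0.86 ± 0.14, adjusted p = 0.0300), and *mir1329* had 3.5 and 4.14 in the distal DA against 5.75 and 5.57 in the aorta (-1.84 ± 0.22, adjusted p = 0.0109), with the distal DA values below the lower quartile. The array measures probe sets placed on these loci in total RNA, so precursor and mature forms were not separated. The probe set of *lpp* had values close to those of *mir1653*, with 11.96 and 12.06 in the distal DA against 11.16 and 11.18 in the aorta. Whether these 2 probe sets take up the same RNA was not tested. *mir1329* lost its call without distal DA replicate 1 (limma adjusted p = 0.0522), and *mir27b* without either distal DA array (adjusted p = 0.0624 to 0.114). *mir1653* did so without any 1 of the 6 arrays (limma adjusted p = 0.05 to 0.218).

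Further genes called as lower belonged to no list. *avbd12*, an avian beta-defensin, had 5.72 and 5.66 in the distal DA against 7.56 and 7.47 in the aorta (-1.82 ± 0.14, adjusted p = 0.00231), and *atp6v1c2*, a subunit of the proton pump of vesicles, had 5.21 and 5.05 in the distal DA against 6.96 and 6.84 in the aorta (-1.77 ± 0.15, adjusted p = 0.00316), with the distal DA values below the lower quartile. *kiaa1644*, *csmd1*, *tmem71*, *ppp4r4*, *kbtbd11*, *a4gnt*, *fam110b* and *fam19a2* had differences between -1.76 and -1.56. *lrrc8b*, a subunit of volume-regulated anion channels, had 5.91 and 5.74 in the distal DA against 7.35 and 7.15 in the aorta (-1.42 ± 0.15, adjusted p = 0.00704), and the probe set named for *unc13*, which primes vesicles for release, had 5.79 and 5.75 in the distal DA against 7.34 and 7.04 in the aorta (-1.42 ± 0.15, adjusted p = 0.00743). *stc2*, stanniocalcin 2, a secreted glycoprotein, differed by -1.21 ± 0.14 (adjusted p = 0.00962), and *reps2*, a protein of endocytosis, by -1.17 ± 0.13 (adjusted p = 0.00962). On the higher side *cyp1a1*, the monooxygenase induced through the aryl hydrocarbon receptor, had 8.29 and 8.38 in the distal DA against 6.81 and 6.71 in the aorta (1.58 ± 0.14, adjusted p = 0.00362). *nuak1*, a kinase that acts on myosin phosphatase, differed by 1.4 ± 0.15 (adjusted p = 0.00743), and *vsig10l* by 1.58 ± 0.15 (adjusted p = 0.00461). The calls of *avbd12*, *atp6v1c2* and *cyp1a1* were kept whichever array was left out. *kiaa1644* and *csmd1* lost their calls without distal DA replicate 2 (limma adjusted p = 0.0655 to 0.0746), and *a4gnt* and *fam110b* without distal DA replicate 1 (adjusted p = 0.0615 to 0.0819). *tmem71*, *ppp4r4*, *kbtbd11*, *fam19a2*, *lrrc8b*, *unc13*, *stc2*, *reps2*, *nuak1* and *vsig10l* did so without either distal DA array (limma adjusted p = 0.0504 to 0.116).

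Of the 332 called probe sets, 18 also differed between the proximal and the distal DA, a contrast in which 52 of all 20804 probe sets, 0.250%, were called. In 15 of the 18 the distal DA held a middle position between its neighbours, and in 3 it lay outside both. The 2 contrasts share the distal DA arrays, so values are given side by side. From the proximal DA over the distal DA to the aorta *tfap2b* had 7.81 and 8.34, then 6.27 and 6.14, then 4.83 and 4.66, in steps of 1.87 (adjusted p = 0.0238) and 1.46. *foxf1* had 9.22 and 9.29, then 7.78 and 7.63, then 6.23 and 6.25 in the same order, in steps of 1.55 (adjusted p = 0.0238) and 1.46. The step of *tfap2b* to the aorta ends in values below the lower quartile and is not exact in size. *entpd2*, an enzyme that breaks down extracellular nucleotides, and *itih5*, a hyaluronan-binding protein, also lay between the tissues, with steps from the aorta to the distal DA of 1.32 ± 0.14 (adjusted p = 0.00699) and 1.10 ± 0.16 (adjusted p = 0.0198). *ace* had 7.29 and 7.08 in the proximal DA against 8.83 and 8.72 in the distal DA, and *npy* had 8.45 and 8.93 against 10.11 and 10.34, so that both were lowest in the proximal DA. *foxf1* lost its call without distal DA replicate 1 (limma adjusted p = 0.0585), and *entpd2* without either distal DA array (adjusted p = 0.0585 to 0.0755). *itih5* did so without either distal DA array or aorta replicate 2 (limma adjusted p = 0.0776 to 0.169).

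The distal DA stood apart from both neighbours at *ucn3* and *capn6*. *ucn3* had 8.21 and 8.35 in the distal DA against 6.86 and 7.31 in the aorta and 6.55 and 6.31 in the proximal DA (proximal minus distal -1.85, adjusted p = 0.0238). *capn6*, a calpain without protease activity that binds microtubules, had 6.66 and 7.39 in the distal DA against 8.55 and 8.33 in the aorta and 8.72 and 8.93 in the proximal DA, with a difference from the aorta of -1.42 ± 0.24 (adjusted p = 0.0394) and a proximal minus distal difference of 1.80 (adjusted p = 0.0480). The 2 distal DA arrays were further apart at *capn6* than at *ucn3*. The other probe set of this kind had no symbol. *angpt1* and *hs3st1* were higher in the distal DA than in the aorta and had proximal DA values of 5.75 and 6.06 and 6.21 and 5.97, but their proximal minus distal differences, -1.07 (adjusted p = 0.0679) and -1.10 (adjusted p = 0.0649), did not pass the test. *snai2*, with 8.69 and 8.69 in the proximal DA against 6.92 and 7.54 in the distal DA, did not pass it either (adjusted p = 0.0516). *hs3st1* lost its call without either distal DA array or aorta replicate 1 (limma adjusted p = 0.0769 to 0.177), and *angpt1* without any 1 of the 4 distal DA and aorta arrays (adjusted p = 0.0509 to 0.173). *capn6* did so without distal DA replicate 1, either aorta array or either proximal DA array (limma adjusted p = 0.0785 to 0.158), and *ucn3* without either distal DA array, aorta replicate 1 or either proximal DA array (adjusted p = 0.0614 to 0.199).

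**Figure D4:**
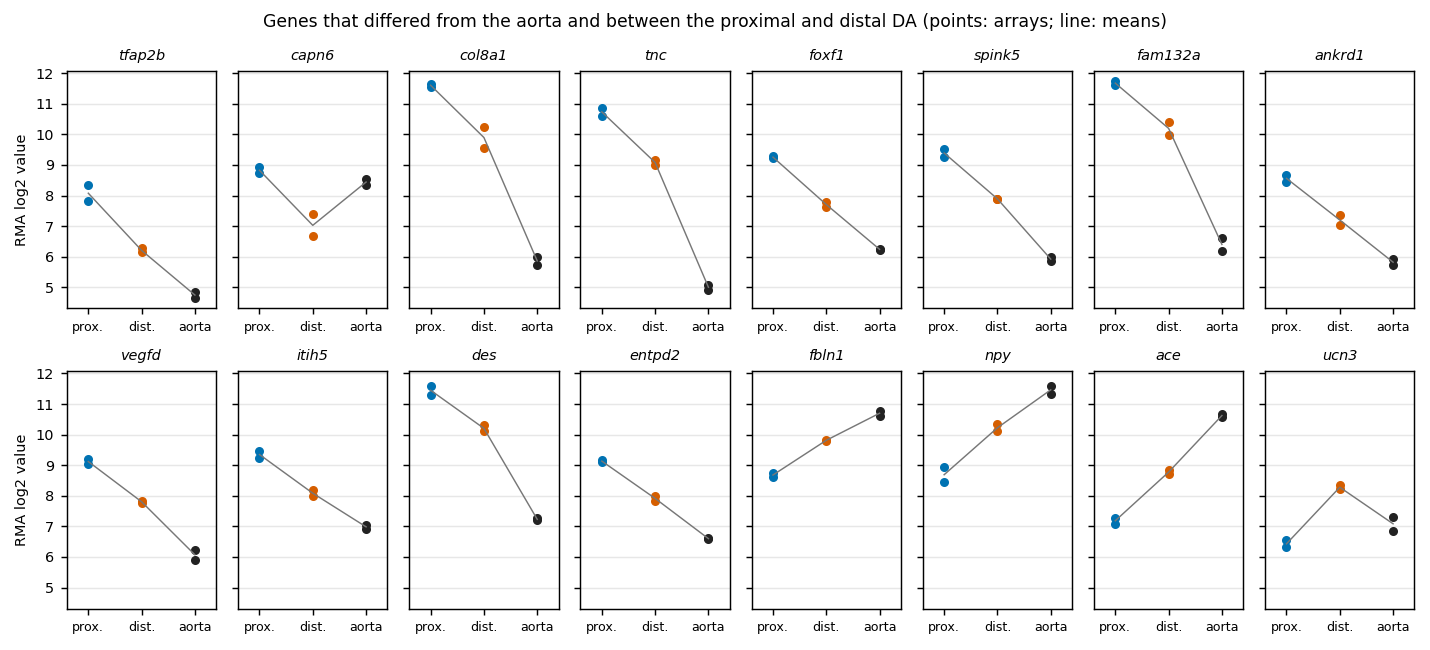
Log2 value (y axis) of each array in the proximal DA (blue), the distal DA (orange) and the aorta (black) for the 16 named genes called in the distal DA against the aorta and in the proximal against the distal DA, with a line through the means. In 14 of these genes the distal DA lay between the other tissues, while *ucn3* peaked and *capn6* dipped in the distal DA.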

How the data were processed

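Expression in the distal DA, the aorta and the proximal DA of IP-stage chick embryos was measured on Affymetrix Chicken Gene 1.0 ST arrays, 2 per tissue. Arrays were scanned with Command Console 2.0, and the authors deposited log2 values made by RMA (background correction, quantile normalization and summary per probe set) in oligo 1.40.1 of Bioconductor 3.5, rounded to 2 decimals. Quantile normalization sets the probe intensities of all arrays to 1 distribution before the summary per probe set. A shift common to most genes of a tissue is therefore not seen. The labels name cRNA and the methods of the study labelled cDNA as the hybridized product. No source used here gives the genome build of the array annotation. All 6 columns were used and 0 were left out.

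Tissue means were fitted to all 20804 probe sets of the 6 arrays in limma 3.58.1 under R 4.3.3 (lmFit, contrasts.fit, eBayes; 3 residual and 4.40 prior degrees of freedom), with the contrast distal DA minus aorta and Benjamini-Hochberg adjustment over all probe sets. The median SE of a difference was 0.167. No depth applies to arrays, and their number limits the precision. The fit was run on simulated data in which set genes were changed and the errors of the arrays were independent. That simulation has no deviation shared by same-numbered arrays, so it gives no error rate for these data. Symbols came from the array annotation: a single symbol was given for 12300 probe sets, of which 11727 were in RefSeq, more than 1 symbol for 256 and no symbol for 8248. For lists, 1 probe set stood for a gene, the one brightest on average.

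The 33 lists held contractile, regulatory, channel, matrix, signalling, cell type and housekeeping genes, and 37 of their 1036 genes were on more than 1 list. The result of 1 list is not reported here. The comparison and the lists were chosen with earlier results of these data known. The rule for naming genes took the extremes of the called differences, 15 on each side, up to 6 called members of each list (the 2 of smallest p in a list without calls), the called microRNAs, up to 10 further called genes in each direction by p, and genes that also differed from the proximal DA. For 7 probe sets without a symbol in the annotation (*des*, *atp2a3*, *nid1*, *gpr116*, *rgs16*, *unc13* and *lrrc8b*) the name came from the study's tables, and these, further list members and the genes of the closing observations were picked with their values in view.

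Alternative settings were a fit of the 4 distal DA and aorta arrays only, eBayes with trend and robust estimation, quantile normalization again, cyclic loess, a threshold of 2-fold beside the p, only the brighter 0.5 of probe sets, leaving out single arrays, replicate numbers as a block, and, for lists, a gene's median over its probe sets. A tissue reduced to a single array is assumed to vary like the others. A single proximal DA array adds nothing to the estimate of the spread. Leaving out either one therefore equals the fit of the 4 distal DA and aorta arrays. The quantitative RT-PCR and histology of the study were not analysed here.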

Additional observations from a re-analysis of the deposited data

Results flagged for a closer look

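For 16 named genes the difference from the aorta was not the same in the 2 parts of the DA: the limma contrast of the proximal minus the distal DA had an adjusted p below 0.05. Groups of 2 arrays are too small for a search for single outlying samples. Among the genes higher in the proximal DA the contrast was largest at *tfap2b*, a neural crest factor, with 1.87 on the log2 scale (adjusted p = 0.0238), followed by *capn6* with 1.80 (adjusted p = 0.0480) and the collagen gene *col8a1* with 1.71 (adjusted p = 0.0480).

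The proximal DA exceeded the distal DA at *tnc* by 1.66, at *fam132a* by 1.48, at *spink5* by 1.5 and at *foxf1* by 1.55. The muscle genes *ankrd1* and *des* were higher there by 1.36 and 1.24. The secreted factor *vegfd* and the extracellular proteins *itih5* and *entpd2* were higher by 1.32, 1.26 and 1.22. In the other direction the proximal minus distal difference was -1.59 for *ace*, -1.54 for *npy*, -1.14 for *fbln1* and -1.85 for *ucn3*. Both parts of the DA lay on the same side of the aorta for 14 of these genes, while *ucn3* and *capn6* were set apart in the distal DA.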

How the results depend on the processing

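The count of higher probe sets, 198 with all arrays, ranged from 36 to 145 when 1 array was left out, and that of lower ones, 134, from 16 to 141. With the other alternatives these counts stayed within 1.5 times: 145 and 94 in the fit of only distal DA and aorta arrays, 235 and 161 with trend and robust estimation, 208 and 113 after quantile normalization again, 217 and 125 after cyclic loess, 278 and 170 in the brighter 0.5 of probe sets, and 156 and 95 at a minimum of 2-fold. No named result changed its direction under any of these. With all arrays 133 of the 149 named probe sets were called, so only these 133 had a call to lose. Of 149 named probe sets, 22 calls were lost in the fit without the proximal DA, 7 after quantile normalization again, 5 after cyclic loess and 18 at a minimum of 2-fold, against 94 and 85 without distal DA replicate 1 or 2 and 35 and 39 without aorta replicate 1 or 2. The cause was not tested.

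No label or method says that a replicate number marks a shared pool or day, and the numbers were not taken as a pairing of tissues. The deviations of same-numbered arrays correlated with 0.199 for aorta and distal DA, with -0.03 for aorta and proximal DA and with 0.321 for distal and proximal DA. With the replicate number as a block, 187 probe sets were called higher and 105 lower, and 16 named calls were lost.

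With 2 arrays of pooled tissue per group the fit has little power against small differences, and values below the lower quartile of an array cannot be told from background. A gene that was not called is therefore not shown to be equal in the 2 tissues.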

Other observations

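Beyond the lists, several genes known from endothelium, all chosen after their values were seen, were called higher in the distal DA: *adgrl4* by 1.62 ± 0.21, *myct1* by 1.35 ± 0.21, *ptprb* by 1.33 ± 0.19, *lmo2* by 1.26 ± 0.19 and *s1pr1* by 0.88 ± 0.16 (SE, limma, n = 2 arrays per tissue). *fam20c*, a kinase of secreted proteins, differed by 1.96 ± 0.25, *tnfrsf11b*, osteoprotegerin, by 1.79 ± 0.29, and *sod3*, the extracellular superoxide dismutase, by 1.02 ± 0.17. Among the 6 limma fits that leave out 1 array, the calls of *adgrl4* and *fam20c* were lost in 2 fits, that of *ptprb* in 4, those of *myct1*, *lmo2* and *tnfrsf11b* in 5 and those of *s1pr1* and *sod3* in 6. Muscle genes outside the lists included *csrp2* with 1.26 ± 0.18 and *lmcd1* with 1.30 ± 0.16, whose calls were lost in 3 and 2 of the 6 fits.

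Among genes lower in the distal DA and on no list were the potassium channel subunits *kcnd2* with -1.06 ± 0.14 and *kcnf1* with -1.08 ± 0.18. The *kcnd2* value in distal DA replicate 1, 5.37, was below the lower quartile of that array. The homeobox gene *barx2* differed by -1.31 ± 0.18, with distal DA values below the lower quartile. The chromatin protein *hmga2* differed by -1.06 ± 0.17, and *mab21l2* by -1.54 ± 0.22. Of the 6 fits with 1 array left out, 3 lost the call of *barx2*, 4 those of *kcnd2*, *kcnf1* and *hmga2*, and 5 that of *mab21l2*. *mab21l2* had 7.49 and 6.82 in the distal DA against 8.69 and 8.70 in the aorta, and 8.48 and 8.62 in the proximal DA, so that the distal DA was lowest of the 3 tissues. Its proximal minus distal difference was 1.4 and did not pass the test (limma adjusted p = 0.0707).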
